A study of Mus musculus with 10 samples.

Results

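Genes that copy, condense, hold together and separate the chromosomes were followed in the developing mouse neocortex. They were matched by gene name. Replication was covered by subunits of the origin recognition complex (Orc), the Mcm2 to Mcm7 helicase, GINS, primase, replication factor C and replication protein A. Subunits of the DNA polymerases alpha, delta and epsilon, condensin, cohesin, the Smc5/6 complex and topoisomerase II were also named. The Bub and Mad2 checkpoint proteins, the Aurora kinase Aurkb and the cyclins Ccna2, Ccnb1, Ccnd1 and Ccnd2 were included. So were Pcna, Rad21, Fen1, Lig1, Cdk1, Cdk2, Cdk4 and Cdk6. The rule found 70 of the 6147 genes in the deposited table. It uses no expression value, but the members, roles and gene lists were chosen with earlier results of these data known. Wapl, Mki67 and the E cyclins, which the rule also names, were not analysed here. RNA was from neocortex of wild type CD1 mice, an outbred strain with no engineered allele or treatment named in the labels, taken at E12.5, E14, E15.5 or E17 of embryonic life or on the day of birth (P0). Each stage had 2 libraries, 10 in all, which the submitters call biological duplicates. The labels do not give litter, sex, batch or the number of animals per library, so p-values measure the spread between these libraries.

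Before a cell divides, the origin recognition complex marks sites on the DNA and the Mcm2 to Mcm7 ring is loaded there. GINS joins the ring when synthesis starts, primase and the polymerases copy the strands, and a sliding clamp with its loader keeps the polymerases on the template. Cyclins and their kinases time these events, condensin compacts the copied chromosomes, cohesin holds the copies together until the spindle checkpoint lets them part, and topoisomerase II removes their entanglements. In the neocortex, radial glia divide beside the ventricle and give rise to intermediate progenitors and to neurons, which do not divide again. Cohesin and topoisomerase II beta also act on chromosomes of cells that have stopped dividing.

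Values were deposited as TPM, a gene's share of all transcripts after division by gene length. Levels are compared between genes on that scale, although the gene lengths and the use of strand in counting are not given. The listed genes made up between 68.9% and 71.7% of all TPM per library, and read numbers are not given in the sources used. Differences between stages were tested with limma on log2(TPM + 1) over 6048 genes whose mean was 1 TPM or more, among them all 70 members. A gene is called below when its Benjamini-Hochberg adjusted p over all 6048 genes was under 0.05. Changes are differences of log2(TPM + 1), which understate the change of genes near 1 TPM. TPM are shares of a total, and in bulk tissue fewer cells of a type and less RNA per cell cannot be told apart.

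From E12.5 to P0, 66 of the 70 members fell, 1 rose and 3 did not pass the test. Over all genes tested, 51% were called lower and 27.1% higher. The median change was -1.98 for the members and -0.27 for all genes, and 67 of the 70 had their highest stage mean at E12.5. Of the members, 55 were called lower by at least 1 on the log2 scale and 18 by at least 3, where the shares of all genes were 20% and 2.22%. The largest falls were in Bub1b, a checkpoint kinase-like protein (-4.40 (SE 0.13, adjusted p 7.66e-11)), Ccnb1, the cyclin that drives entry into mitosis with Cdk1 (-4.36 (SE 0.10, adjusted p 2.77e-11)), and Top2a, the topoisomerase II of dividing cells (-4.30 (SE 0.13, adjusted p 1.23e-10)). Pole4, a small subunit of DNA polymerase epsilon, was the member that rose (0.43 (SE 0.08, adjusted p 0.000234)). Orc4 (-0.02 (SE 0.10, adjusted p 0.868)), Orc5 (-0.16 (SE 0.10, adjusted p 0.183)) and Mad2l1bp (-0.02 (SE 0.10, adjusted p 0.894)) did not pass. Summed over the 70 members, the TPM went from 9658 and 9887 in the E12.5 libraries to 2312 and 2359 in the P0 libraries, so the P0 mean was 23.9% of the E12.5 mean. In the F test over all 5 stages, 68 members were called, against 82.9% of all genes.

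Median-of-ratios scaling moved the median of all genes from -0.27 to -0.01 and that of the members from -1.98 to -1.70, with 65 members lower and 3 higher. In that scaling 75.6% of all genes were called in either direction. The 3 called higher in that scaling were Pole4 and, with signs opposite to those on TPM as deposited, Orc4 (0.25) and Mad2l1bp (0.25). Leaving out any 1 library left 67 members called in either direction, as with all libraries, where 78.2% of all genes were called. Markers of blood, meninges and choroid plexus were also far higher at E12.5 than at P0, and their values are given with the step from E14 to E15.5.

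**Figure D1:**
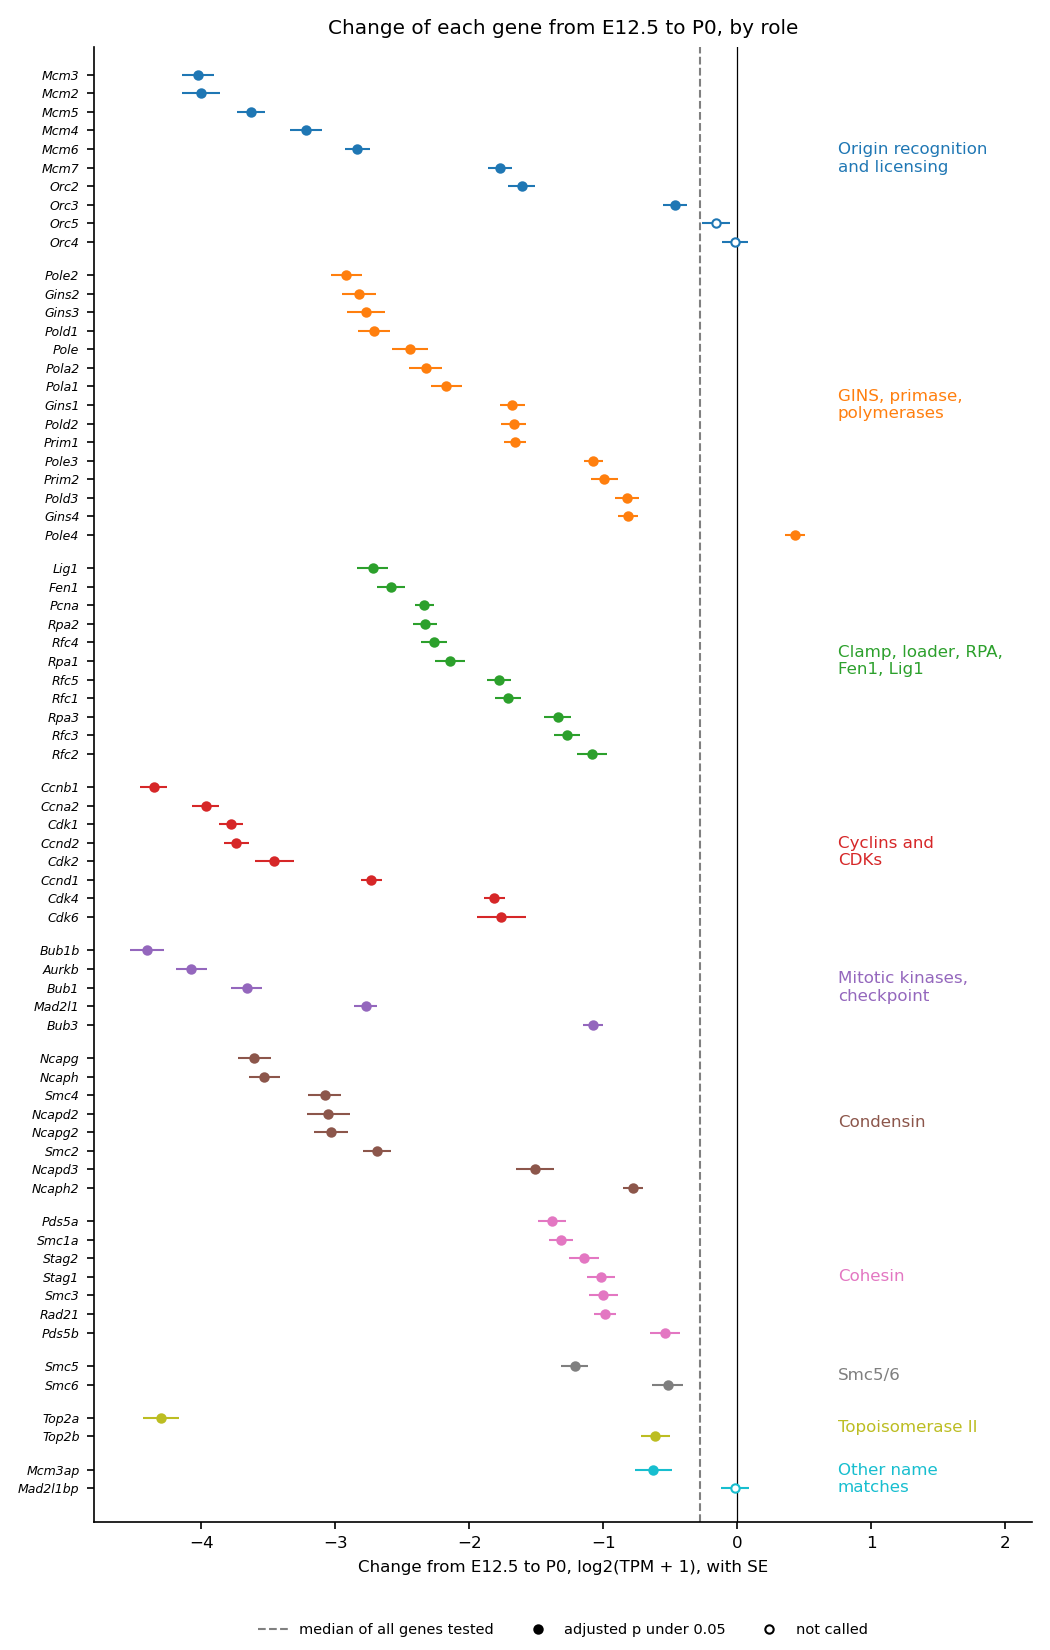
Change of each of the 70 genes from E12.5 to P0 on the log2(TPM + 1) scale (x axis), grouped by role, with bars for the standard error, filled points for genes with an adjusted p under 0.05 and a dashed line at the median of all genes tested (-0.27). All 8 cyclins and kinases and all 8 condensin genes lie at -0.78 or lower, the cohesin genes between -1.38 and -0.54, and the filled point to the right of 0 is Pole4.

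Promoter sequence was set beside these changes, because many cell cycle genes are known to be bound by E2F factors or by the DREAM complex at short motifs. RefSeq windows of 300 bases, from 250 before to 50 after a transcription start in GRCm38.p6, were found by symbol for 56 of the 70 members (67 windows) and for 4841 genes of the table. The search used TTTCCCGC, TTTCGCGC, TTTGCCGC and TTTGGCGC as E2F-type motifs, TTTGAA as the cell cycle genes homology region (CHR) and CCAAT as the CCAAT box, all on both strands. An E2F-type match was in the windows of 21 of 56 members (37.5%) and of 5.29% of the 4841 genes. A CHR match was in 15 (26.8%) and in 13.7% of all. A CCAAT box was in 31 (55.4%) and in 42.6% of all. Among the 27 members with a change of -2 or lower, 13 had an E2F-type match, 10 a CHR and 18 a CCAAT box, and among the other 29 members 8, 5 and 13 did. A match is a string of letters and shows neither binding nor a cause, and no test was made of these shares.

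The 160 bases before the start are printed 5′ to 3′ on the gene's strand for 6 genes, chosen to show a pair of helicase genes, a mitotic kinase, the pair of topoisomerase genes with unlike changes, and the gene that rose. Capitals mark the motif matches, and a stretch such as that near the 5′ end of the Mcm5 window holds overlapping E2F-type matches on both strands. They are the RefSeq reference sequence of GRCm38.p6, not CD1 sequence. The windows lie at chr8:75109349-75109508 on the forward strand, chr1:128359706-128359865 on the reverse strand, chr10:69352913-69353072 on the reverse strand, chr11:99024190-99024349 on the reverse strand, chr14:16365046-16365205 on the forward strand and chr6:82652875-82653034 on the reverse strand.
Mcm5: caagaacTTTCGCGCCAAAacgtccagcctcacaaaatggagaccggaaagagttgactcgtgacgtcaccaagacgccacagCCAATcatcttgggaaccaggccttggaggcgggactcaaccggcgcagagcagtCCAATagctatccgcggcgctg
Mcm6: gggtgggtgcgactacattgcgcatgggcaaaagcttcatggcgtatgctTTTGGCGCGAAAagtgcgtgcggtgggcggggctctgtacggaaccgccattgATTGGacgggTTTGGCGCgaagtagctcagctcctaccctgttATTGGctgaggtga
Cdk1: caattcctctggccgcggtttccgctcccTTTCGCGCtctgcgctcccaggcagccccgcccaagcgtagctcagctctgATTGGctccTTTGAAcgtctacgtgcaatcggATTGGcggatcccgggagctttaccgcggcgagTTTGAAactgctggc
Top2a: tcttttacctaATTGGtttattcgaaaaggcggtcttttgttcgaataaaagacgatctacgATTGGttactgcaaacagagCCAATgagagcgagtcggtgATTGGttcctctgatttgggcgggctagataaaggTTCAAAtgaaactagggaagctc
Top2b: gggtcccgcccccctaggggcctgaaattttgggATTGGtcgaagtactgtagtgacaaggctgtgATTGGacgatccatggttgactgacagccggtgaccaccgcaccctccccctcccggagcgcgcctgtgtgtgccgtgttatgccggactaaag
Pole4: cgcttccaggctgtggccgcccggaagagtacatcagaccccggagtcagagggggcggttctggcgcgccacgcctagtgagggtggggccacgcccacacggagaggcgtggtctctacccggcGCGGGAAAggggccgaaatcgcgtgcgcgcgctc

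In these windows Mcm5 and Mcm6 hold E2F-type and CCAAT matches, Cdk1 holds all 3 kinds, and Top2a holds a CHR and CCAAT boxes. The first bases of the E2F-type matches of Mcm5 were at -153 and -149 from the start, and those of Mcm6 at -110, -106 and -47. Cdk1 had CHR matches at -71 and -15. Top2b had CCAAT boxes at -126 and -94, and neither of the other 2 kinds in its 300 bases. Pole4, the gene that rose, had an E2F-type match at -34.

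**Figure D2:**
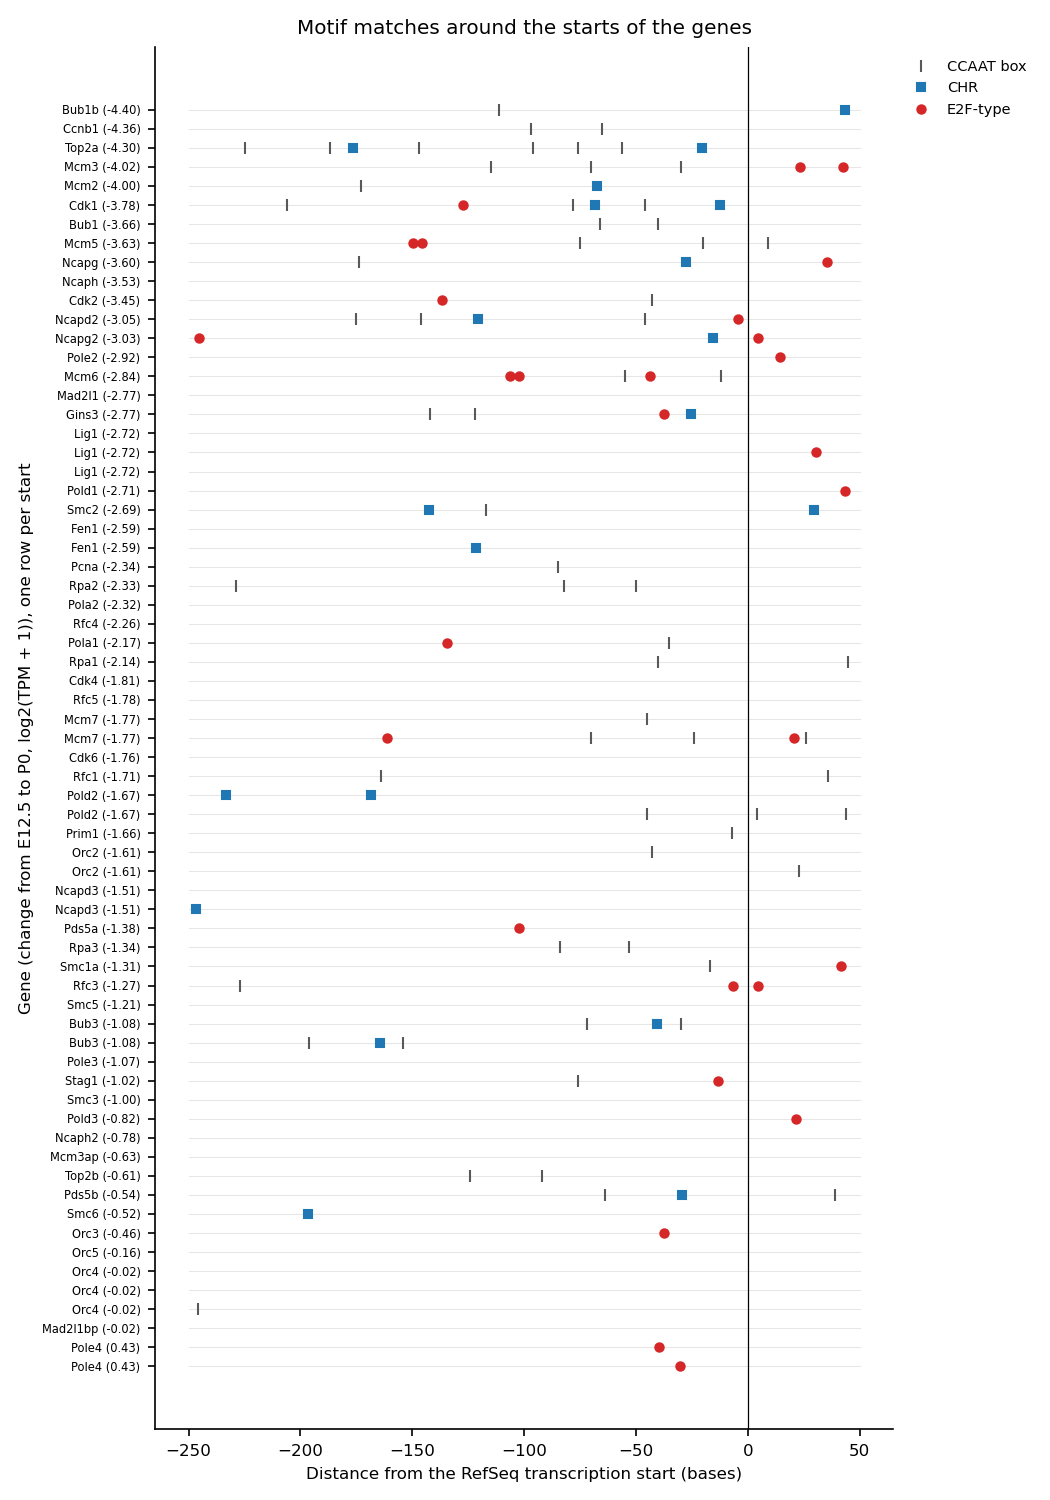
Matches to the E2F-type motifs (circles), the CHR (squares) and the CCAAT box (ticks) by distance from the RefSeq transcription start (x axis, bases), with 1 row for each start of the 56 matched genes, ordered by the change from E12.5 to P0 in parentheses. E2F-type matches occur down the whole list, including Pole4 at its foot, and 21 of the 56 genes have one.

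Origin licensing genes divided into the helicase and the origin recognition complex. All 6 genes of the Mcm2 to Mcm7 ring fell from E12.5 to P0, with a median of -3.42, where 51% of all genes were called lower. Each was also called lower at all 4 steps between neighbouring stages, as were 1.82% of all genes. The first of these calls was lost without any 1 of the 4 E12.5 and E14 libraries for Mcm2, Mcm3, Mcm4 and Mcm7, and without some of them for Mcm5 and Mcm6. The call from E15.5 to E17 was lost for all but Mcm5 with only the 4 libraries of that step in the fit. Mcm2 was at 78.7 and 86.8 TPM at E12.5, 52.9 and 46.1 at E14, 19.9 and 18.7 at E15.5, 11 and 8.06 at E17, and 3.93 and 4.54 at P0. The 2 libraries of each stage lay apart from those of the next, and the change was -4.0 (SE 0.14, adjusted p 2.76e-10). Mcm3 was at 86.2 and 95.7 TPM at E12.5, 59.0 and 55.3 at E14, 23.8 and 22.0 at E15.5, 13.4 and 10.5 at E17, and 4.5 and 4.82 at P0. Mcm3 fell most of the 6 (-4.02 (SE 0.12, adjusted p 8.56e-11)). Mcm5 (-3.63), Mcm4 (-3.22) and Mcm6 (-2.84) followed. Summed over the ring, the TPM went from 563 and 613 at E12.5 to 78.3 and 80.5 at P0, and the P0 mean was 13.5% of the E12.5 mean.

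Mcm7 fell least of the ring (-1.77 (SE 0.09, adjusted p 6.05e-09)). Mcm7 was at 147 and 162 TPM at E12.5, 119.5 and 110.2 at E14, 78.3 and 78.1 at E15.5, 66.6 and 57.9 at E17, and 45.1 and 43.8 at P0. Its P0 mean was 28.8% of its E12.5 mean, against 5.11% for Mcm2. The ratio of Mcm7 to the mean of Mcm2 to Mcm6 was 1.78, 2.06, 3.32, 4.84 and 6.38 at the 5 stages in order. Mcm7 made up 26.0% and 26.4% of the summed TPM of the ring in the E12.5 libraries and 57.6% and 54.4% in the P0 libraries. The assembled ring holds its subunits in equal number. The Mcm7 gene (chromosome 5, from 138164583 to 138172422 on the reverse strand, GRCm38) overlaps Cops6 and Ap4m1 on the other strand, and whether reads were counted by strand is not given.

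The origin recognition genes among the members were Orc2, Orc3, Orc4 and Orc5, so Orc1 and Orc6 are not covered. These 4 had a median change of -0.31, and 2 of 4 were called lower, near the -0.27 and 51% of all genes. Orc2 fell by 1.61 on the log2 scale, from 60.3 ± 0.288 to 19.1 ± 1.90 TPM (SD, n = 2 each), and Orc3 changed by -0.46 (SE 0.09, adjusted p 0.000455), a call that was lost under quantile normalization (-0.15, adjusted p 0.137). Orc4 was at 42.7 and 39.1 TPM at E12.5, 36.0 and 40.5 at E14, 33.9 and 31.6 at E15.5, 32.1 and 35.0 at E17, and 39.0 and 41.7 at P0. Orc5 was at 20.6 and 18.9 TPM at E12.5, 18.9 and 19.3 at E14, 17.1 and 15.3 at E15.5, 16.5 and 15.1 at E17, and 18.3 and 16.8 at P0. The E12.5 and P0 libraries of Orc4 overlapped, and both P0 libraries of Orc5 lay below both of E12.5. The lowest mean was at E15.5 for Orc4 and at E17 for Orc5. Orc4 rose from E15.5 to P0 (0.29 (SE 0.10, adjusted p 0.0278)). That call was lost without E15.5 replicate 1 (0.34, adjusted p 0.0692), without E15.5 replicate 2 (0.24, adjusted p 0.182) and without P0 replicate 2 (0.24, adjusted p 0.119).

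All 4 GINS genes and all 4 primase and polymerase alpha genes fell from E12.5 to P0, where 51% of all genes were called lower. Gins2 was at 75.1 and 75.2 TPM at E12.5, 58.0 and 56.0 at E14, 24.5 and 29.8 at E15.5, 20.5 and 16.1 at E17, and 10.4 and 9.15 at P0. Gins2 changed by -2.82 and Gins3 by -2.77, whereas Gins1 changed by -1.68 and Gins4 by -0.81. The ratio of Gins4 to Gins3 went from 1.74 at E12.5 to 7.82 at P0; both proteins sit in the same complex. Of the primase subunits, Prim1, the catalytic one, changed by -1.66 and Prim2 by -0.99. Pola1, the catalytic subunit of polymerase alpha, changed by -2.17 and its partner Pola2 by -2.32.

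Within polymerases delta and epsilon the catalytic genes fell more than some of the accessory ones. Pold1 was at 19.7 and 20.9 TPM at E12.5, 16.2 and 13.6 at E14, 7.51 and 7.71 at E15.5, 5.71 and 4.79 at E17, and 2.30 and 2.22 at P0. Pold1, the catalytic subunit of delta, changed by -2.71, Pold2 by -1.67 and Pold3 by -0.82. Pold3 was at 36.3 and 35.2 TPM at E15.5 and at 35.5 and 34.6 at P0, and its ratio to Pold1 went from 3.08 to 15.502. Pole was at 9.75 and 11 TPM at E12.5, 6.56 and 6.62 at E14, 2.68 and 2.54 at E15.5, 2.52 and 1.70 at E17, and 0.993 and 1.18 at P0. Pole2 was at 13.9 and 14.5 TPM at E12.5, 9.02 and 9.75 at E14, 3.95 and 3.31 at E15.5, 2.28 and 2.49 at E17, and 1.05 and 0.977 at P0. Both were near 1 TPM at P0, where the log2(TPM + 1) scale understates a fall, and the ratio of the E12.5 to the P0 mean was 9.53 for Pole and 14 for Pole2.

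Pole3 and Pole4 encode the paired histone-fold subunits of polymerase epsilon, and their RNAs moved in opposite directions. Pole3 was at 379 and 378 TPM at E12.5, 319.5 and 331 at E14, 241 and 222 at E15.5, 198 and 203 at E17, and 181 and 177 at P0. Pole4 was at 185 and 183 TPM at E12.5, 191 and 197 at E14, 199.8 and 185 at E15.5, 198 and 204 at E17, and 260.4 and 237 at P0. Both P0 libraries of Pole4 lay above all 8 earlier ones, and those of Pole3 below all earlier ones. Pole3 changed by -1.07 (SE 0.07, adjusted p 6.12e-08). Pole4 kept its rise from E12.5 to P0 under all 22 alternatives, between 0.37 and 0.71. The step that passed was E17 to P0 (0.31 (SE 0.08, adjusted p 0.00821)), and that call was lost without P0 replicate 1 (0.24, adjusted p 0.0523), with array weights (adjusted p 0.141) and with only the 4 libraries of this step in the fit (adjusted p 0.119). The ratio of Pole4 to Pole3 was 0.485, 0.597, 0.830, 1.0 and 1.39 in stage order, and Pole4 stood 12.9 times as high as Pole2 at E12.5 and 245 times at P0.

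All 11 genes of the clamp, its loader, replication protein A and the joining of Okazaki fragments fell, with a median of -2.14. From E12.5 to P0, 51% of all genes were called lower. Pcna was at 329.6 and 332 TPM at E12.5, 254 and 242 at E14, 126 and 130.5 at E15.5, 92.0 and 84.1 at E17, and 64.8 and 64.7 at P0. Pcna, the sliding clamp, was lower in both libraries of each stage than in those of the stage before, and its P0 mean was 19.6% of the E12.5 mean (-2.34 (SE 0.07, adjusted p 1.23e-10)). Lig1 was at 48.4 and 53.6 TPM at E12.5, 36.0 and 32.6 at E14, 16.9 and 16.6 at E15.5, 11.2 and 10.1 at E17, and 6.26 and 7.54 at P0. Lig1, which seals nicks on the lagging strand, fell most of the 11 (-2.72 (SE 0.11, adjusted p 1.36e-09)), and Fen1, which trims flaps there, changed by -2.59. Rfc4 was at 49.0 and 52.1 TPM at E12.5, 38.6 and 39.5 at E14, 24.1 and 24.0 at E15.5, 13.4 and 14.7 at E17, and 9.08 and 10.4 at P0. Rfc2 was at 101 and 110.4 TPM at E12.5, 91.5 and 86.8 at E14, 65.0 and 64.4 at E15.5, 60.8 and 53.6 at E17, and 56.2 and 43.4 at P0. Of the 5 loader genes, Rfc4 (-2.26) fell most and Rfc2 (-1.08) least, with Rfc5 at -1.78, Rfc1 at -1.71 and Rfc3 at -1.27 between them.

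Replication protein A, which coats single-stranded DNA, has 3 subunits whose RNAs took different courses. Rpa1 was at 90.9 and 97.8 TPM at E12.5, 71.5 and 60.5 at E14, 37.3 and 35.9 at E15.5, 22.3 and 21.7 at E17, and 18.7 and 22.7 at P0. Rpa2 was at 127 and 145 TPM at E12.5, 103 and 98.0 at E14, 48.4 and 47.4 at E15.5, 34.2 and 31.9 at E17, and 27.1 and 25.4 at P0. Rpa3 was at 137 and 131 TPM at E12.5, 121 and 118 at E14, 111 and 111 at E15.5, 64.7 and 80.0 at E17, and 49.3 and 55.4 at P0. Rpa2 changed by -2.33 from E12.5 to P0, Rpa1 by -2.14 and Rpa3 by -1.34. From E14 to E15.5, Rpa2 was at -1.06 and Rpa3 at -0.11 (adjusted p 0.374), and from E17 to P0 Rpa1 was at -0.09 (adjusted p 0.533). Pcna has 2 named pseudogenes and Ccnb1 has 1 in GENCODE M21, and how reads shared with them were assigned was not tested.

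**Figure D3:**
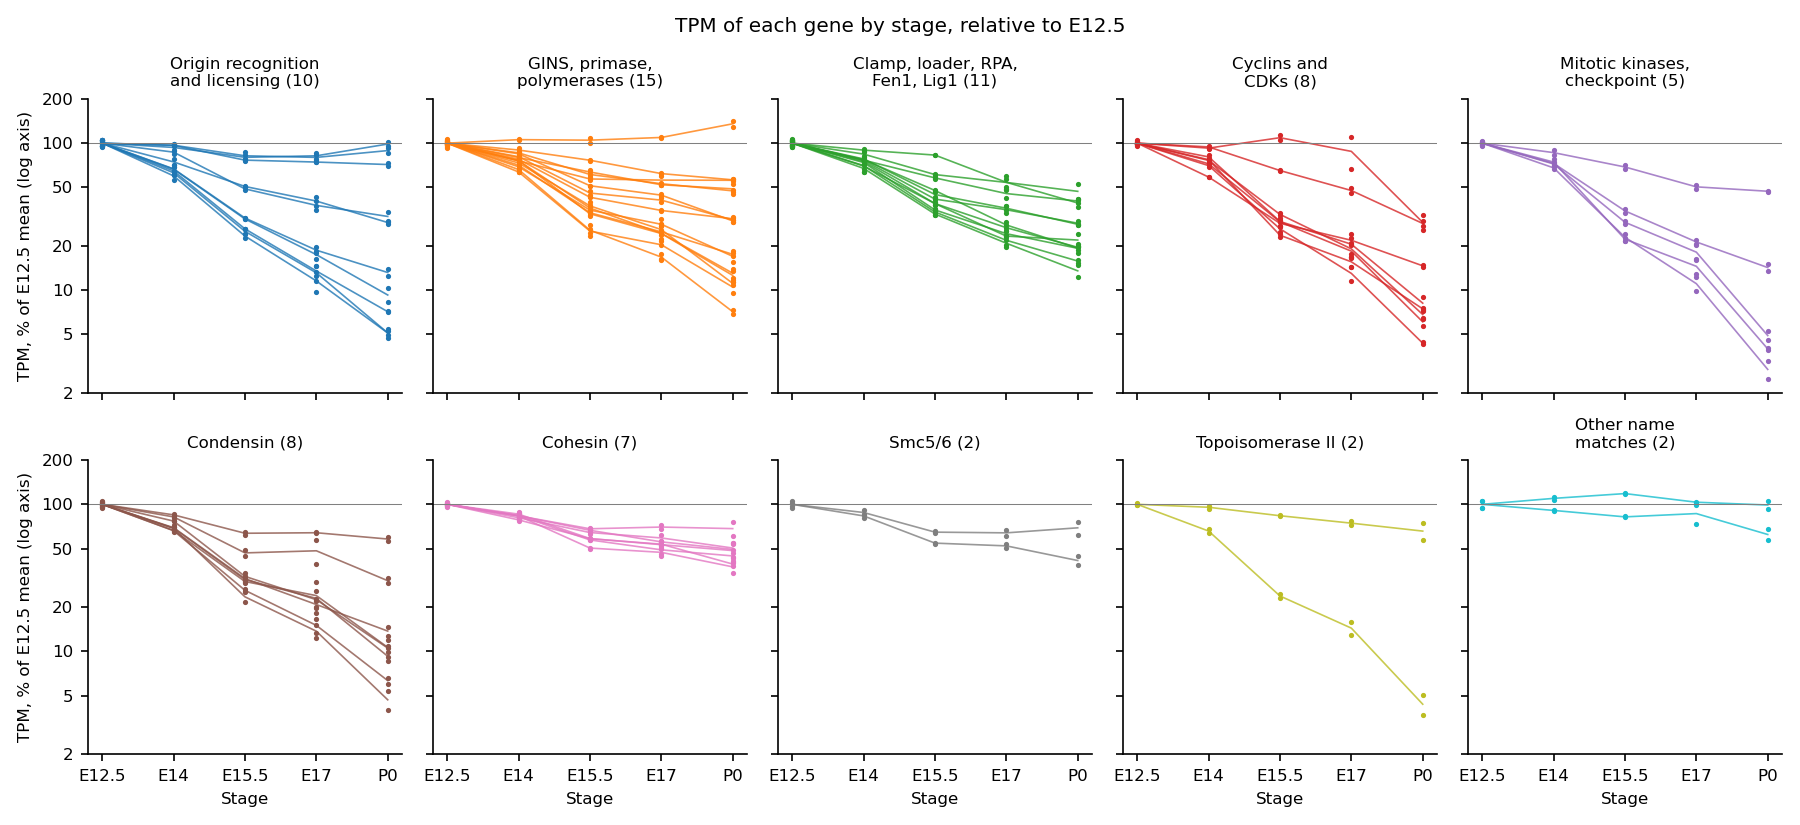
TPM of each gene as a percentage of its own E12.5 mean (y axis, log) by stage (x axis), with lines through the stage means, points for the 2 libraries of each stage and the number of genes of each role in parentheses. Bub1b ends at 2.89% and Ccnb1 at 4.36%, the cohesin genes end between 37.5% and 68.4%, and the line above 100% at P0 among the polymerases is Pole4 at 135%.

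All 8 cyclin and cyclin-dependent kinase genes fell from E12.5 to P0, with a median of -3.60, where 51% of all genes were called lower. Ccnb1 was at 178 and 181 TPM at E12.5, 129.5 and 124 at E14, 49.2 and 44.8 at E15.5, 25.9 and 20.9 at E17, and 7.71 and 7.97 at P0. Ccnb1 had an E12.5 mean 23.0 times its P0 mean, and no library overlapped with those of the neighbouring stages. Ccna2 was at 291 and 288 TPM at E12.5, 214 and 205 at E14, 89.3 and 79.6 at E15.5, 58.4 and 48.2 at E17, and 16.6 and 18.6 at P0. Ccna2, the cyclin of S phase and early mitosis, changed by -3.97 (SE 0.10, adjusted p 3.74e-11). Cdk1, its mitotic partner, changed by -3.78 (SE 0.09, adjusted p 2.77e-11), and Cdk2, the kinase of S phase entry, by -3.45 (SE 0.14, adjusted p 1.28e-09). The ratio of Cdk1 to Cdk2 lay between 1.81 and 2.40 at the 5 stages.

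The D cyclins activate Cdk4 and Cdk6 in G1, and Ccnd2 was the most abundant member at E12.5. Ccnd2 was at 2712 and 2758 TPM at E12.5, 2167 and 2055 at E14, 661 and 631 at E15.5, 462 and 391 at E17, and 202 and 206 at P0. Ccnd1 was at 199.7 and 206 TPM at E12.5, 118 and 119.7 at E14, 60.6 and 54.8 at E15.5, 45.8 and 42.7 at E17, and 29.3 and 30.0 at P0. Ccnd2 changed by -3.74 (SE 0.09, adjusted p 2.98e-11) and Ccnd1 by -2.73 (SE 0.08, adjusted p 7.66e-11). Ccnd1 had the largest fall of any member from E12.5 to E14 (-0.76), and Ccnd2 the largest from E14 to E15.5 (-1.71). The ratio of Ccnd2 to Ccnd1 was 13.5, 17.7, 11.2, 9.62 and 6.88 in stage order. Without Ccnd2, the summed TPM of the members at P0 was 30.3% of that at E12.5.

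Cdk6 did not follow the other kinases in time. Cdk6 was at 99.4 and 90.5 TPM at E12.5, 87.2 and 88.5 at E14, 108 and 99.4 at E15.5, 104 and 63.0 at E17, and 24.2 and 30.7 at P0. Its mean was highest at E15.5, and the first 2 steps did not pass the test (-0.11 (SE 0.18, adjusted p 0.757) and 0.23 (SE 0.18, adjusted p 0.31)). The E17 libraries differed most (83.5 ± 28.9 TPM, SD, n = 2). The step that passed was E17 to P0 (-1.54 (SE 0.18, adjusted p 0.000121)), and it stayed between -1.89 and -1.18 under the 22 alternatives. Cdk4 was at 1111 and 1172 TPM at E12.5, 1088 and 1064 at E14, 749.9 and 736 at E15.5, 561 and 525 at E17, and 336 and 312 at P0. Cdk4 was called lower from E14 onward at each step, and the ratio of Cdk4 to Cdk6 was 12.1 at E12.5, 7.19 at E15.5 and 12 at P0.

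All 5 mitotic kinase and checkpoint genes fell, with a median of -3.66, but not by like amounts. From E12.5 to P0, 51% of all genes were called lower. Bub1b was at 49.6 and 53.7 TPM at E12.5, 35.9 and 34.3 at E14, 12.4 and 11.2 at E15.5, 6.36 and 5.07 at E17, and 1.28 and 1.70 at P0. Aurkb was at 88.7 and 93.1 TPM at E12.5, 67.5 and 63.7 at E14, 26.8 and 25.8 at E15.5, 18.4 and 14.5 at E17, and 4.16 and 4.77 at P0. For both genes the libraries of each stage lay below those of the stage before, and Aurkb, the kinase of the chromosomal passenger complex, had the largest fall of any member from E17 to P0 (-1.67 (SE 0.12, adjusted p 4.83e-06)). Bub1 was at 23.6 and 23.5 TPM at E12.5, 16.7 and 18.3 at E14, 5.35 and 5.10 at E15.5, 3.81 and 3.03 at E17, and 0.950 and 0.924 at P0. Bub1, a kinetochore kinase, was at 3.99% of its E12.5 level at P0 and Bub1b at 2.89%. Both were under 2 TPM at P0, and the ratio of the E12.5 to the P0 mean was 25.1 for Bub1 and 34.6 for Bub1b.

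Bub3, the partner that brings Bub1 and Bub1b to kinetochores, fell least of the 5. Bub3 was at 157 and 164 TPM at E12.5, 145 and 133 at E14, 114 and 108 at E15.5, 83.3 and 78.9 at E17, and 76.2 and 75.2 at P0. Its change was -1.08 (SE 0.08, adjusted p 1.09e-07), and the ratio of Bub1b to Bub3 went from 0.321 to 0.0197. Mad2l1 was at 211 and 216 TPM at E12.5, 155.3 and 156 at E14, 76.7 and 71.2 at E15.5, 43.8 and 47.2 at E17, and 28.6 and 32.2 at P0. Mad2l1, the checkpoint inhibitor of the anaphase-promoting complex, changed by -2.77 (SE 0.08, adjusted p 9.89e-11). Mad2l1bp, which binds Mad2 and helps to switch the checkpoint off, was matched by name and did not pass the test from E12.5 to P0. Mad2l1bp was at 16.4 and 18.3 TPM at E12.5, 19.4 and 18.7 at E14, 20.8 and 20.3 at E15.5, 17.8 and 18.1 at E17, and 16.0 and 18.2 at P0. The ratio of Mad2l1 to Mad2l1bp went from 12.4 at E12.5 to 1.78 at P0.

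All 8 condensin genes fell from E12.5 to P0, with a median of -3.04, where 51% of all genes were called lower. Smc2 (-2.69) and Smc4 (-3.08), the ATPases of both complexes, lay near that median. The condensin I subunits Ncapg (-3.60), Ncaph (-3.53) and Ncapd2 (-3.05) had a median of -3.53. The condensin II subunits had a median of -1.51, with Ncapg2 (-3.03) close to condensin I, and Ncapd3 (-1.51) and Ncaph2 (-0.78) less changed. Ncaph was at 38.0 and 40.2 TPM at E12.5, 26.4 and 25.3 at E14, 10.3 and 9.98 at E15.5, 6.5 and 5.23 at E17, and 2.59 and 2.35 at P0. Ncaph2 was at 126 and 135 TPM at E12.5, 113 and 109 at E14, 84.9 and 81.2 at E15.5, 84.6 and 82.9 at E17, and 78.4 and 73.4 at P0. Ncaph was lower at each stage than at the one before, whereas Ncaph2 was called lower only from E14 to E15.5 (-0.41 (SE 0.08, adjusted p 0.00086)) among the 4 steps. The ratio of Ncaph to Ncaph2 was 0.299 at E12.5 and 0.0325 at P0. The Ncaph2 gene (chromosome 15, from 89355719 to 89372826 on the forward strand) overlaps Sco2 and Tymp on the other strand.

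All 7 cohesin genes fell from E12.5 to P0, where 51% of all genes were called lower. Their median of -1.02 lay nearer to the median of all genes than that of condensin. Smc1a and Smc3 form the arms of the ring, Rad21 closes it, and Stag1 and Stag2 bind it. Rad21 was at 249 and 247 TPM at E12.5, 201 and 201 at E14, 163 and 156 at E15.5, 141 and 153 at E17, and 116 and 135 at P0. Smc1a was at 57.5 and 55.3 TPM at E12.5, 43.4 and 45.0 at E14, 33.0 and 32.8 at E15.5, 31.9 and 28.5 at E17, and 21.4 and 22.9 at P0. Smc3 was at 51.4 and 50.1 TPM at E12.5, 43.1 and 41.8 at E14, 32.8 and 34.7 at E15.5, 28.2 and 28.1 at E17, and 22.2 and 27.9 at P0. The P0 mean was 50.4% of the E12.5 mean for Rad21, 39.2% for Smc1a and 49.4% for Smc3. Stag1 changed by -1.02 and Stag2 by -1.14, and the ratio of Stag2 to Stag1 stayed between 1.37 and 1.49. None of the 7 was called from E15.5 to E17, where 10.6% of all genes were called lower by limma, and 1 of the 7 had an unadjusted p under 0.05.

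The SMC genes of condensin and cohesin were at similar levels at E12.5 and apart at P0. Smc2 was at 46.7 and 45.7 TPM at E12.5, 32.4 and 31.6 at E14, 14.9 and 13.9 at E15.5, 10.2 and 9.07 at E17, and 5.87 and 6.81 at P0. The ratio of Smc2 to Smc3 was 0.910 at E12.5, 0.428 at E15.5 and 0.254 at P0, and that of Smc4 to Smc1a 1.14, 0.633 and 0.305. Pds5a and Pds5b encode alternative regulators of cohesin release. Pds5a was at 67.7 and 67.0 TPM at E12.5, 53.3 and 59.1 at E14, 34.2 and 33.7 at E15.5, 33.3 and 30.2 at E17, and 22.9 and 27.6 at P0. Pds5b was at 35.2 and 36.8 TPM at E12.5, 28.9 and 31.3 at E14, 24.8 and 24.4 at E15.5, 25.9 and 24.6 at E17, and 21.8 and 27.5 at P0. Pds5a changed by -1.38 and Pds5b by -0.54 (SE 0.11, adjusted p 0.000922), and Pds5b was called at none of the 4 steps. Their ratio went from 1.87 to 1.03.

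Smc5 and Smc6 form a complex that acts in recombination and repair. Smc5 was at 33.0 and 31.4 TPM at E12.5, 26.2 and 27.6 at E14, 17.7 and 17.4 at E15.5, 17.4 and 16.2 at E17, and 12.4 and 14.3 at P0. Smc6 was at 41.8 and 37.9 TPM at E12.5, 33.5 and 36.6 at E14, 26.1 and 25.5 at E15.5, 24.4 and 26.6 at E17, and 24.8 and 30.4 at P0. Smc5 changed by -1.21 (SE 0.10, adjusted p 5.33e-07). Smc6 changed by -0.52 (SE 0.11, adjusted p 0.00119), and was no longer called under median-of-ratios scaling (-0.25, adjusted p 0.0597) or quantile normalization (-0.26, adjusted p 0.0748). The ratio of Smc5 to Smc6 went from 0.809 to 0.486.

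The topoisomerase II pair had changes of very unequal size. Top2a was at 124 and 127 TPM at E12.5, 79.8 and 85.1 at E14, 30.7 and 29.0 at E15.5, 20 and 16.1 at E17, and 4.62 and 6.33 at P0. Top2b was at 114 and 109.9 TPM at E12.5, 104 and 109.5 at E14, 92.8 and 94.4 at E15.5, 80.8 and 85.8 at E17, and 63.5 and 83.6 at P0. Top2a (chromosome 11, from 98992943 to 99024189 on the reverse strand) was above Top2b in both E12.5 libraries and far below it in both P0 libraries. Top2a changed by -4.30 (SE 0.13, adjusted p 1.23e-10) and Top2b by -0.61 (SE 0.11, adjusted p 0.000309). The ratio of Top2a to Top2b was 1.12, 0.771, 0.319, 0.217 and 0.0742 in stage order. Top2b was called at none of the 4 steps, and its P0 libraries differed most (73.6 ± 14.2 TPM, SD, n = 2). Mcm3ap, which shares part of its name with a helicase subunit but is known for RNA export, changed by -0.63 (SE 0.14, adjusted p 0.00138), a call that was lost under quantile normalization (-0.18, adjusted p 0.0837).

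**Figure D4:**
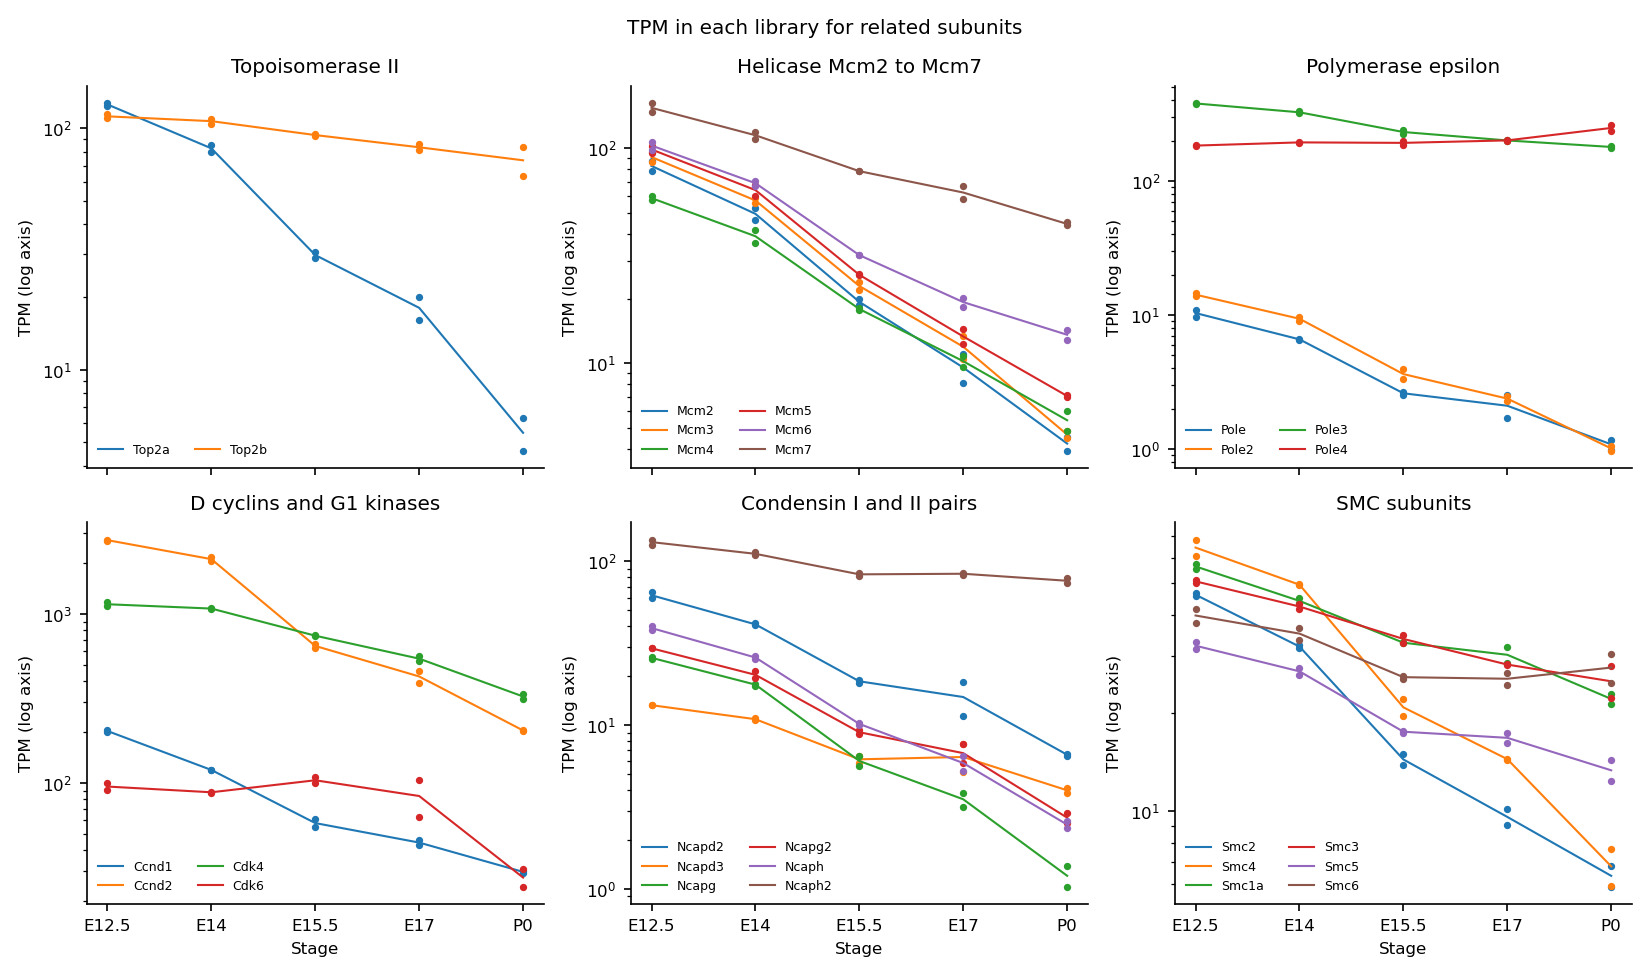
TPM in each library (points) and stage mean (lines) on a log y axis by stage (x axis) for 6 sets of related subunits. Top2a starts above Top2b and ends at 5.48 against 73.6 TPM, Mcm7 separates from the other 5 helicase subunits, Pole3 and Pole4 cross, and Cdk6 keeps its level until E17.

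Between neighbouring stages, members were called lower at every step, and limma called 0 higher before the last one (0 also at an unadjusted p under 0.05 in each of these 3 steps), where 3.95%, 18.4% and 14.4% of all genes were called higher. From E12.5 to E14, 37 of 70 were called lower, against 4.78% of all genes called lower and 8.73% called in either direction. The median change was -0.37 for the members and -0.06 for all genes, and 66 members had both E14 libraries below both E12.5 libraries, as did 45.4% of all genes. The largest fall was that of Ccnd1 (-0.76 (SE 0.08, adjusted p 0.000437)), followed by Mcm2 (-0.73 (SE 0.14, adjusted p 0.0101)). The count rested on single libraries: leaving out replicate 1 or 2 of E12.5 gave 2 or 1, leaving out replicate 1 or 2 of E14 gave 3 or 1, leaving out either E15.5 library gave 19, and array weights gave 61. The share of all genes called moved too, to between 1.07% and 1.70% without an E12.5 or E14 library, 4.96% without an E15.5 library and 39.9% with array weights. Without E12.5 replicate 2 or E14 replicate 2, the 1 member called of 70 was about the share of all genes.

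From E14 to E15.5, 61 of 70 members were called lower, and 33.3% of all genes were called lower and 51.7% in either direction. The median change of the members was -0.83 and that of all genes -0.13. All mitotic kinase, checkpoint and condensin genes were called lower here, from Bub1 (-1.57 (SE 0.12, adjusted p 1.09e-06)) to Bub3 (-0.32 (SE 0.08, adjusted p 0.00423), lost without E14 replicate 1 or E15.5 replicate 2, with an adjusted p of up to 0.058). The 9 members that were not called were Cdk6, Mad2l1bp, Mcm3ap, Orc4, Orc5, Pds5b, Pole4, Rpa3 and Top2b. This step held the largest fall of 50 of the 66 members called lower from E12.5 to P0 (75.8%), and of 1625 of the 3087 genes called lower over the same span (52.6%).

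Markers of other cells moved with this step. The erythroid markers in the table (3 of 8 named) summed to 1975 and 1880 TPM in the E14 libraries and 9.26 and 9.84 TPM in those of E15.5, the meningeal markers (5 of 5) to 111 and 106 against 3.03 and 2.80, and the choroid plexus markers (2 of 4) to 1405 and 1517 against 3.46 and 4.25. The neuronal markers (9 of 10) summed to 2125 and 1971 TPM at E14 and to 4190 and 4353 TPM at E15.5. At E12.5 the erythroid sums were 4323 and 4494 TPM, the meningeal ones 173 and 173, the choroid plexus ones 452 and 303 and the neuronal ones 1566 and 1643. From E12.5 to P0 the neuronal sum rose and the sums of the 3 lists of other tissues fell. Of the 9 neuronal genes, 7 were called higher over that span and 2 lower, against 27.1% and 51% of all genes. They ranged from Tbr1 (-0.97) to Mapt (3.58). From E15.5 to P0, 3 of the neuronal genes were called higher and 3 lower, with a median of 0.05. The part of these lists in the fall of the members was not tested. From E15.5 to P0, where the 3 lists of other tissues each summed to under 10 TPM in all libraries, 60 of 70 members were called lower and 2 higher (Orc4 and Pole4), against 30.7% and 19.5% of all genes, with medians of -0.83 and -0.09. Vascular markers (0 of 6 in the table) could not be read, and the oligodendrocyte and microglial lists had 1 gene each, at no more than 1.40 and 8.93 TPM. The astrocyte markers (3 of 5) summed to 29.0 and 30.5 TPM at E15.5 and to 93.7 and 96.7 at P0. All 3 astrocyte markers were called higher over that span (median 1.24, Gfap 3.69), where the members fell, and their part was not tested. Of the progenitor markers, 6 of 8 radial glia genes were called lower from E12.5 to P0 and 2 higher, against 51% and 27.1% of all genes. Their median was -2.86, from Hmga2 (-7.19) to Fabp7 (0.94). From E15.5 to P0, 6 were called lower and 1 higher (median -1.47). The sum of that list, to which genes of high level add most, came to between 2023 and 2195 TPM at E12.5 and E14 and to 1646 and 1676 TPM at P0. Of 4 named intermediate progenitor markers 1 was in the table, Eomes, at 163 and 172 TPM at E12.5 and 8.28 and 8.20 TPM at P0.

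From E15.5 to E17, 41 of 70 members were called lower, against 10.6% of all genes called lower and 25% in either direction, with medians of -0.37 for the members and 0.01 for all genes. Ccnb1 (-0.98 (SE 0.10, adjusted p 0.000188)), Mcm2 (-0.96 (SE 0.14, adjusted p 0.000987)) and Bub1b (-0.94 (SE 0.13, adjusted p 0.000709)) had the largest falls. All 5 mitotic kinase and checkpoint genes and 7 of 8 cyclins and kinases were called, and 0 of 7 cohesin genes. The count was 24 without E15.5 replicate 1, 27 with array weights and 5 with only the 4 libraries of this step in the fit, and all genes lost calls too (7.71% called without E15.5 replicate 1 and 1.98% with only the 4 libraries, with array weights a share between 7.71% and 25%). At E17 replicate 1 was the higher library for 51 of 70 members (72.9%) and for 72.0% of all genes, and the SD of the difference between replicates over the members was 0.19 there and between 0.08 and 0.16 at the other stages.

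From E17 to P0, 48 of 70 members were called lower and Pole4 higher, against 28.8% of all genes lower, 12.9% higher and 41.7% in either direction, with medians of -0.46 and -0.10. All 8 cyclins and kinases were called, and so were 7 of 8 condensin genes and 3 of 7 cohesin genes. Aurkb, Top2a (-1.56 (SE 0.13, adjusted p 1.46e-05)) and Ccna2 (-1.54 (SE 0.10, adjusted p 4.46e-06)) had the largest falls. With only the 4 libraries of this step in the fit, 29 members and 18.6% of all genes were called in either direction. Array weights gave 33 members, all lower, and 18.9% of all genes. Quantile normalization gave 32 lower and 3 higher, with 40.4% of all genes called and medians of -0.23 for the members and 0.02 for all genes. Median-of-ratios scaling gave 43 lower and 3 higher, with 44% of all genes called. Over all 4 steps, 28 members were called lower at each (1.82% of all genes were). That count carries the dependence of the first step on single libraries. It also rests on the step from E15.5 to E17, where 5 members and 1.98% of all genes were called with only its 4 libraries. Among the 28 were the whole Mcm2 to Mcm7 ring, Pcna, Lig1, Fen1, Cdk1, Ccnb1, Aurkb and Top2a. At the other end, 6 members were called lower at no step, namely Mad2l1bp, Orc4, Orc5, Pds5b, Pole4 and Top2b, as were 51.1% of all genes. The stage mean fell at every step for 60 of 70 members (85.7%) and for 1293 of 6048 genes (21.4%).

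**Figure D5:**
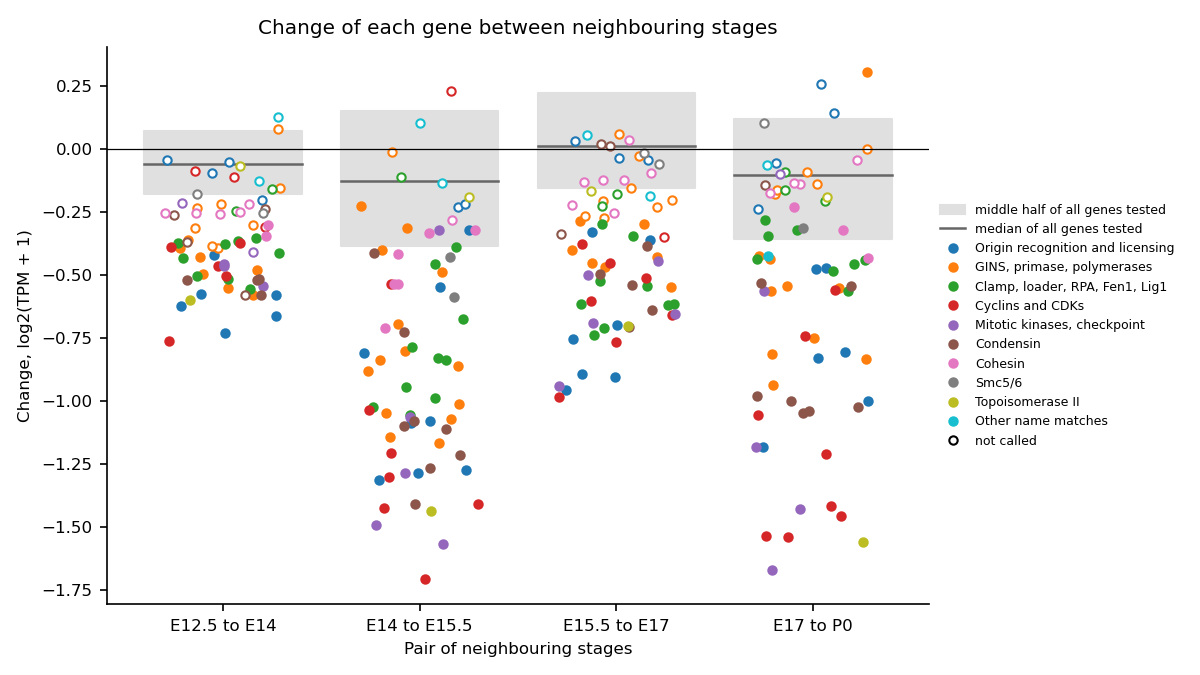
Change of each of the 70 genes between neighbouring stages on the log2(TPM + 1) scale (y axis), coloured by role, filled where called, beside the median and middle range of all 6048 genes (line and grey band). The points lie mostly below the band at each step, reach lowest from E14 to E15.5 (Ccnd2 at -1.71) and from E17 to P0 (Aurkb at -1.67), and 1 filled point lies above 0 (Pole4).

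Genes of the same pathways that the name rule leaves out were listed by function, and over all genes 51% were called lower from E12.5 to P0 with a median of -0.27. Of 32 further replication genes 18 were in the table, and all 18 were called lower from E12.5 to P0, with a median of -2.12. They ranged from Uhrf1, which carries DNA methylation over to the new strand (-4.39), to Mcmbp, which binds free MCM subunits (-0.86). Of 47 further mitotic genes 39 were in the table and 36 were called lower, with a median of -3.24. The extremes were Ube2c, the ubiquitin-conjugating enzyme of the anaphase-promoting complex (-4.52), and Anapc5, a subunit of that complex (0.01, not called). Of 9 further cohesion genes 5 were in the table and 4 were called lower, with a median of -1.07. Cdca5, which protects cohesion in dividing cells, was at -4.15 and the cohesin loader subunit Mau2 at 0.10 (not called). Of 31 genes that control the cell cycle 16 were in the table and 15 were called lower, with a median of -1.14, from Wee1, the kinase that restrains Cdk1 (-3.38), to Lin37 of the DREAM complex (-0.18, not called). Over this span limma called 0 genes of the 4 lists higher, and 0 had an unadjusted p under 0.05 in that direction.

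Of the 70 members, 19 overlap another protein-coding gene in GENCODE M21, on the other strand in each case except Pole2, which overlaps Gm49384 on its own strand. Orc4 and Top2b are among the 19 (with Acvr2a and Mbd5, and with Rarb), and so are Cdk2, Cdk4, Ccna2 and Ccnd1. No member was listed at 0 TPM in any library, and 5 had a P0 mean under 2 TPM (Bub1, Bub1b, Ncapg, Pole and Pole2).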

How the data were processed

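RNA was extracted with TRIzol LS from cleared lysates of frozen neocortex and made into stranded libraries of polyadenylated RNA, per the labels' protocols. RNA that went into the pellet would not have been measured. The authors deposited TPM, 1 column per library, per the file headers. STAR, Subread and GRCm38.p5 are named in the submitters' processing notes, with no role given. The sources used here do not give the annotation, the gene lengths, the use of strand or how the 6147 listed genes were chosen. Every column of values was matched to a sample.

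The 70 members were matched by gene name. limma 3.58.1 in R 4.3.3 was fitted to log2(TPM + 1) of 6048 genes whose mean was 1 TPM or more (99 were left out), with 1 mean per stage over 10 libraries, 5 residual degrees of freedom and a variance trend, and p was adjusted by the Benjamini-Hochberg method over all 6048 genes. The median SE of a member's change was 0.104, and 2 libraries per stage limit the precision. No count model was used, because TPM are not counts. An exact permutation test of 2 libraries against 2 cannot go below p = 0.333, so none was used. The script was tested on simulated data.

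The members, roles and gene lists were chosen with earlier results of these data known. Named were all members by role, the largest rise or fall of each role, related pairs, members unlike their role, and the highest and lowest gene of each pathway list. E15.5 to P0 was added after seeing the data. Positions and overlaps came from GENCODE M21 (GRCm38), which was chosen here, and promoter windows from RefSeq (GRCm38.p6). The alternatives tried were other pseudocounts (0.1 and 10 TPM), a minimum mean of 5 TPM or none, 2 scalings, 2 other moderations, array weights, only the 4 libraries compared, a replicate block, an adjusted p under 0.01 and leaving out each library. Tables used pandas 2.3.3 and numpy 2.4.6 under Python 3.11.15, and figures used matplotlib 3.10.9.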

Additional observations from a re-analysis of the deposited data

How the results depend on the processing

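Counts are of members called in either direction. The share of all genes called moved too. From E12.5 to E14 it was 8.73%. It was 39.9% with array weights, 41% with only the 4 libraries compared and 2.51% at an adjusted p under 0.01. From E15.5 to E17 that share was 25%, and 1.98% with only the 4 libraries compared and 10.5% at an adjusted p under 0.01. It was also lower there with array weights. From E17 to P0 the share was 41.7%, and 18.6% with only the 4 libraries compared. From E12.5 to E14 (37 called) the count was 61 with array weights, 61 with only the 4 libraries compared and 6 at an adjusted p under 0.01, and between 1 and 54 when 1 library was left out. From E15.5 to E17 (41 called) it was 27, 5 and 26 under the same settings, and between 24 and 46 when 1 library was left out. From E17 to P0 (49 called) it was 29 with only the 4 libraries compared, and between 41 and 52 when 1 library was left out. Over all 22 alternatives the counts from E14 to E15.5 and from E12.5 to P0 stayed within 1.5 times the reported ones, between 53 and 66 and between 65 and 68. When 1 library was left out they were between 53 and 65 and at 67. At least 1 of the alternatives ended the call of 36, 9, 36 and 20 members at the 4 steps in order and of 3 from E12.5 to P0 (Mcm3ap, Orc3 and Smc6). The cause of these shifts was not tested. Signs turned only for members that were not called from E12.5 to P0. Orc4 was at 0.23 under quantile normalization, 0.25 under median-of-ratios scaling, and between -0.082 and 0.044 when 1 library was left out (0.044 without E12.5 replicate 1 and 0.029 without P0 replicate 1). Mad2l1bp was at 0.31 and 0.25 under those scalings, and between -0.10 and 0.072 when 1 library was left out (0.057 without E12.5 replicate 2 and 0.072 without P0 replicate 1). Orc5 was at 0.18 under quantile normalization and 0.10 under median-of-ratios scaling. With a replicate block, 30, 61, 38 and 47 members were called at the 4 steps in order and 67 from E12.5 to P0. The shares of all genes called were 7.64%, 49.7%, 23.3%, 39.2% and 77.3%. Deviations of libraries with the same number correlated between -0.37 and 0.11 over genes. With 2 libraries per stage, each deviation rests on 1 difference, so these values cannot settle whether the numbers pair the libraries. The number of reads is not known, so low values could not be given a counting error.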
